A study of Homo sapiens with 6 samples.

Results

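The amyloid precursor protein gene APP, its 2 paralogs APLP1 and APLP2 and 6 genes of the proteases that cut their products (BACE1, BACE2, ADAM10, ADAM17, NCSTN and APH1A) were examined in cells depleted of calponin 3 (CNN3). These 9 of the 48162 genes in the count table were found by the Ensembl identifiers that carry these symbols in GENCODE release 29. APP was chosen by its measured values, because it is among the most abundant transcripts of these cells and its level was lower after CNN3 depletion. Its values are therefore described without a test. The other 8 genes were added as its paralogs and proteases, with earlier results of these data known, and were tested within the fit across all genes. The cells were SiHa, an established line from a human cervical carcinoma, and both groups received a small interfering RNA (siRNA). In the depleted group this was si-CNN3#1, directed at CNN3, and in the comparison group si-NC, the study's control siRNA. Each group held 3 samples, described in the study's methods as independent assays, and their RNA was taken 48 h after transfection and sequenced following preparation with an Illumina TruSeq kit. The medium was replaced 24 h after transfection according to the sample labels. The depletion was transient, and it was made in 1 cell line with 1 of the study's siRNAs against CNN3.

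APP is a membrane protein with a large extracellular part and a short cytoplasmic tail, and it is made in most tissues, epithelia included. Alpha-secretases of the ADAM family shed its extracellular part, and the beta-secretase BACE1 cuts it nearer to its N-terminus. The gamma-secretase complex then cuts the remaining stub inside the membrane. The beta cut followed by the gamma cut releases amyloid-beta, the peptide of the plaques of Alzheimer disease, whereas the alpha cut falls within the amyloid-beta sequence. The paralogs are cut by the same proteases but lack that sequence.

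The siRNAs are shown because a strand of an siRNA can also act on transcripts that match its seed, bases 2 to 8 of the guide strand. The sense strands are those of the sample labels, and each guide was derived from it as the strand complementary to the 19 paired bases, read 5′ to 3′, with the seed in capitals.
si-CNN3#1 sense: gcagaugggaaccaacaaatt
si-CNN3#1 guide: uUUGUUGGuucccaucugc
si-NC sense: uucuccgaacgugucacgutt
si-NC guide: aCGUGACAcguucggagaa
The site that pairs with the seed of si-CNN3#1 is CCAACAA in DNA letters, and that of si-NC is TGTCACG. In the transcript with the longest coding sequence of each of the 9 genes (GENCODE release 29), CCAACAA was not present in APP. ADAM10 held it 3 times, all in the 3′ untranslated region, starting at bases 6577, 7975 and 10365 of its transcript of 11431 bases, and NCSTN held it once in the coding sequence, at base 1711. The sites are printed with 9 bases on each side and the site in capitals.
ADAM10 first site: tggggtaatCCAACAAggacaaggt
ADAM10 second site: tttacccccCCAACAAtttatggat
ADAM10 last site: gatattggcCCAACAAtctgggagt
NCSTN coding site: tgattaaagCCAACAActcatggtt
TGTCACG was in none of the 9 transcripts. For comparison, 7.70% of 12490 tested genes had CCAACAA in the 3′ untranslated region and 2.59% had TGTCACG. Anywhere in the transcript, CCAACAA was present in 23.6% and TGTCACG in 6.69% of 12695 tested genes, beside 2 of the 9 and 0 of the 9 here. A match is a description of the letters and was not tested as a site of action.

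The counts on genes ran from 18147028 to 19026341 per sample with si-CNN3#1 and from 20287139 to 24976517 with si-NC, so every si-NC sample was the deeper. Values are given as CPM (read counts scaled to a common library size of 1000000) after TMM normalization, as mean ± SD over 3 samples, and the groups were compared by the quasi-likelihood test of edgeR, with p-values adjusted by Benjamini-Hochberg over the 15860 genes that passed the filter on low counts. A gene was called at an adjusted p of at most 0.05. Beyond counting noise, samples of a group differed by a common coefficient of variation of 0.023 in this fit. The standard errors and p-values rest on that small spread. The study's methods say no more of the assays than that they were independent. CNN3, the targeted gene, was at 26.0, 26.8 and 31.4 CPM with si-CNN3#1 and at 56.5, 51.7 and 57.2 CPM with si-NC, or 50.9% of the control mean (edgeR adjusted p = 2.04e-20). In all, 13.3% of the tested genes were called, 6.17% higher and 7.14% lower with si-CNN3#1, and the median log2 fold change of all tested genes was 0.0023. The 7 epithelial marker genes examined were all detected, KRT19 (85 to 130 counts) and EPCAM (106 to 145) at low counts. Of 8 neuronal markers STMN2 was at 0 in every sample and 3 others did not exceed 10 counts. SYP (94 to 165 counts), TUBB3 (36 to 77), SNAP25 (14 to 32) and RBFOX3 (14 to 22) were detected at low counts. So were the fibroblast genes COL1A1 (66 to 109), DCN (59 to 81) and COL3A1 (41 to 62). KRT8 and KRT18, keratins of simple epithelia, were called lower (log2 fold changes of -0.19 and -0.18). The other 5 epithelial genes were not called, KRT7, a further keratin, among them (0.06, edgeR adjusted p = 0.0832). The median of the 7 was 0.03, with 4 of them above 0. CD14, which made up most of the signal of the fibroblast, endothelial and blood markers, was called lower (-0.30), and the other 5 tested of these markers were not called. Of all tested genes 7.14% were called lower and 6.17% higher. The part of these shifts in the results on APP was not tested.

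APP, which lies on the minus strand at chr21:25880550-26171128 (GRCh38), had 41405, 40134 and 38467 reads in si-CNN3#1 replicates 1, 2 and 3 and 50837, 61071 and 54672 reads in si-NC replicates 1, 2 and 3. After normalization these were 2196, 2090 and 2107 CPM with si-CNN3#1 and 2534, 2454 and 2534 CPM with si-NC. All 3 samples with si-CNN3#1 were below all 3 controls, and the gap between the groups was wider than the spread within either. The mean was 2131 ± 57.0 CPM with si-CNN3#1 and 2507 ± 46.5 CPM with si-NC, which left 85.0% of the control level (log2 fold change -0.23, SE 0.02). Over the 16 alternative settings, which reuse the values APP was chosen by, the log2 fold change ran from -0.26 to -0.22. In these bulk samples a lower level in every cell and a smaller share of cells with a high level cannot be told apart.

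APP stood at rank 18 of the tested genes by mean CPM. As a share of all counts of a sample it made up 0.219%, 0.211% and 0.212% with si-CNN3#1 and 0.251%, 0.245% and 0.251% with si-NC. Among the 100 most abundant genes RPLP1, which encodes a protein of the ribosomal stalk, was the only one with a lower log2 fold change than APP (-0.67). Of these 100 genes 33 were called lower and 6 higher, beside 7.14% and 6.17% of all tested genes. A call also depends on the SE, which was 0.02 for APP and 0.06 for APLP1, a gene of far fewer reads. The shares of abundant and of all genes are therefore not on equal terms. At or below the log2 fold change of APP, 317 of all tested genes were called lower. The 33 and the 317 count APP itself, so they are no support for its fall. APP was chosen for its abundance and its fall, so its place here follows in part from that choice.

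APLP2 (chr11:130068147-130144811, plus strand), a widely made paralog of APP, did not pass the test. It was at 1035, 1030 and 1009 CPM with si-CNN3#1 and at 1057, 1058 and 1060 CPM with si-NC. The groups did not overlap, but they were close, with means of 1024 ± 13.9 and 1058 ± 1.80 CPM (log2 fold change -0.05, SE 0.02, adjusted p = 0.203 by edgeR). The 95% interval of the fold change ran from 93.6% to 100.02% of the control.

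APLP1 (chr19:35867899-35879791, plus strand), the paralog best known from neurons, was at 30.4, 31.0 and 29.1 CPM with si-CNN3#1 and at 31.4, 29.9 and 29.8 CPM with si-NC. The groups overlapped almost entirely (log2 fold change -0.01, SE 0.06, edgeR adjusted p = 0.963). The 95% interval of its fold change ran from 92.2% to 107% of the control. It shares 232 exon bases with NPHS1 on the other strand, which had 3 to 10 counts per sample.

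Ratios within each sample do not depend on the normalization between samples. The ratio of APP counts to APLP2 counts was 2.12, 2.03 and 2.09 with si-CNN3#1 and 2.40, 2.32 and 2.39 with si-NC, and no sample of either group fell within the range of the other. This ratio reuses the counts by which APP was chosen, so it was not tested and the gap is a description. APLP1 over APLP2 was 0.0295 ± 0.00060 with si-CNN3#1 and 0.0287 ± 0.00089 with si-NC, with overlapping groups (exact two-sided permutation test, p = 0.3, 0.4 after adjustment over 4 ratios). Per length, APP made up 57.7% to 58.8% of the summed FPKM (fragments scaled to transcript length and library size) of the 3 genes of the family with si-CNN3#1 and 61.0% to 61.8% with si-NC, and APLP2 made up most of the rest. These shares depend on the deposited lengths, 1916 bases for APP and 1330 for APLP2. With annotated transcripts of 3467 and 3742 bases, the si-NC levels were 718 for APP, 281 for APLP2 and 12.1 for APLP1, a larger share for APP.

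**Figure D1:**
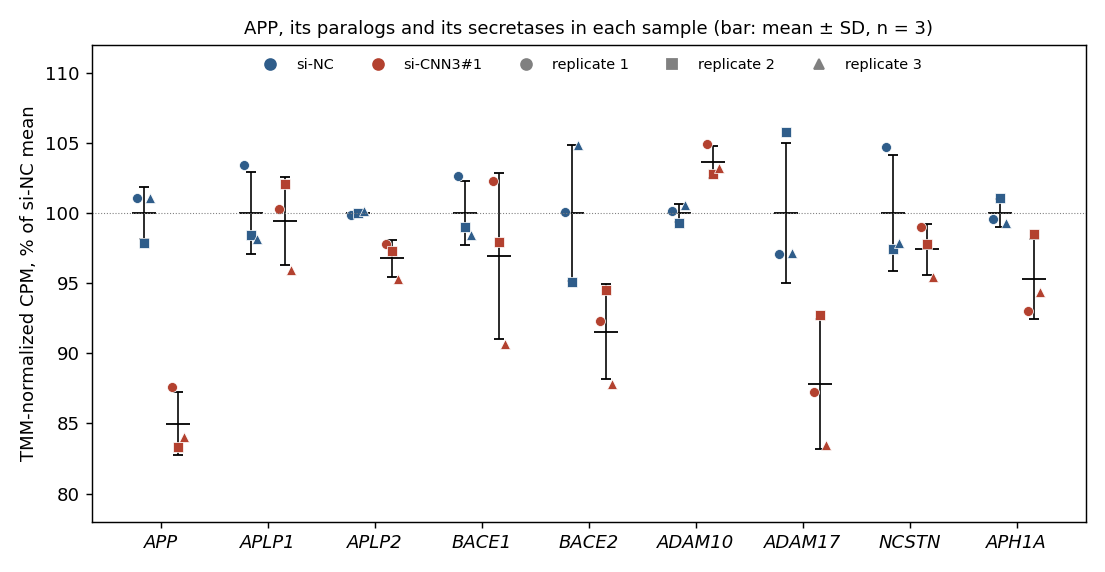
TMM-normalized CPM of the 9 genes in each sample, as a percentage of the si-NC mean of the same gene (vertical axis, linear, not starting at 0); blue points are si-NC, red points si-CNN3#1, the marker shape gives the replicate and bars give mean ± SD over 3 samples. APP lay near 85.0% of the control with si-CNN3#1, ADAM17 near 87.8% with a wider spread, and the other 7 genes had means between 91.6% and 104%.

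The alpha-secretases did not move together. ADAM17 (chr2:9488486-9556732, minus strand), known for shedding tumour necrosis factor and ligands of the epidermal growth factor receptor as well as APP, was at 26.5, 28.2 and 25.4 CPM with si-CNN3#1 and at 29.5, 32.1 and 29.5 CPM with si-NC. Each si-CNN3#1 sample was below each control, although si-CNN3#1 replicate 2 came close to the lowest control. ADAM17 was called lower, at 87.8% of the control (95% interval 80.9% to 95.02%; log2 fold change -0.19, SE 0.06, edgeR adjusted p = 0.0198). The call was lost without si-CNN3#1 replicate 1 (adjusted p = 0.0622), without si-CNN3#1 replicate 3 (adjusted p = 0.121) and without si-NC replicate 2 (adjusted p = 0.165), each by edgeR. It was also lost with DESeq2 (adjusted p = 0.0898), and over all 16 alternatives the adjusted p ran from 0.0089 to 0.246 with the log2 fold change below 0 throughout. ADAM17 shares 1323 exon bases with IAH1 on the other strand, which was not called (log2 fold change 0.13, adjusted p = 0.345).

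ADAM10 (chr15:58588807-58749978, minus strand), the main constitutive alpha-secretase of APP in most cells and the gene with 3 seed sites of si-CNN3#1 shown above, was at 228, 223 and 224 CPM with si-CNN3#1 and at 217, 215 and 218 CPM with si-NC. Every si-CNN3#1 sample was above every control, by a small margin (225 ± 2.45 against 217 ± 1.43 CPM). The difference did not pass the test (log2 fold change 0.05, SE 0.03, edgeR adjusted p = 0.237), and its interval of 99.8% to 108% of the control held no decrease of more than a fraction of a percent. The antisense gene AC018904.1 shares 136 exon bases with it at 24 to 50 counts per sample.

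ADAM9, a further ADAM protease that can cut APP and is not among the 9 genes, rose from 123 ± 1.37 CPM with si-NC to 147 ± 4.65 CPM with si-CNN3#1 (log2 fold change 0.25, SE 0.03, edgeR adjusted p = 1.3e-08). The 3 ADAM genes thus differed in direction, with ADAM9 higher, ADAM17 lower and ADAM10 not called. The ratio of ADAM17 to ADAM10 counts was 0.116, 0.126 and 0.113 with si-CNN3#1 and 0.136, 0.149 and 0.135 with si-NC. The groups of this ratio did not overlap, and its exact two-sided permutation p was 0.1 (0.4 after adjustment over the 4 ratios), where 0.1 is the smallest p that 3 samples against 3 allow.

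Neither BACE1 nor BACE2 was called. BACE1 (chr11:117285207-117316259, minus strand), the beta-secretase that starts amyloid-beta production in neurons, was at 35.4, 33.9 and 31.4 CPM with si-CNN3#1 and at 35.5, 34.3 and 34.1 CPM with si-NC, and the groups overlapped (log2 fold change -0.04, SE 0.05, edgeR adjusted p = 0.690). It shares 1239 exon bases with RNF214 on the other strand and 1872 with BACE1-AS, which has no row in the table, and whether the counting used strand is not given in the sources used here, so such reads cannot be told apart. RNF214 itself was not called (log2 fold change 0.12, adjusted p = 0.242).

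BACE2 (chr21:41167801-41282518, plus strand), a homolog of BACE1 on the same chromosome as APP, was at 26.3, 26.9 and 24.98 CPM with si-CNN3#1 and at 28.5, 27.0 and 29.8 CPM with si-NC. The groups did not overlap, but the highest si-CNN3#1 sample and the lowest control were nearly equal. Its interval of 84.6% to 99.5% of the control lay below 100%, yet the adjusted p of edgeR's test was 0.166 (log2 fold change -0.12, SE 0.06). The ratio of BACE2 to BACE1 counts was 0.776 ± 0.0308 with si-CNN3#1 and 0.822 ± 0.0465 with si-NC, with an exact permutation p of 0.3 (0.4 adjusted).

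Gamma-secretase is a complex of several membrane proteins, among them nicastrin (NCSTN), which helps to admit substrates, and APH1, a scaffold of the complex. NCSTN (chr1:160343272-160358952, plus strand) was at 125, 124 and 121 CPM with si-CNN3#1 and at 133, 123 and 124 CPM with si-NC, where replicate 1 of the control was the highest of the 6 samples and the groups overlapped (log2 fold change -0.04, SE 0.03, edgeR adjusted p = 0.551). APH1A (chr1:150265399-150269580, minus strand) was at 81.8, 86.6 and 83.0 CPM with si-CNN3#1 and at 87.6, 88.9 and 87.3 CPM with si-NC. All 3 si-CNN3#1 samples were below the controls for APH1A, but the difference did not pass the test (log2 fold change -0.07, SE 0.04, edgeR adjusted p = 0.219, interval 90.6% to 100.2% of the control). NCSTN shares 129 exon bases with COPA and APH1A shares 490 with C1orf54 on the other strand, and neither of these neighbours was called.

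Further subunits, PSEN2, APH1B and PSENEN, are not among the 9 genes. PSEN2, a catalytic subunit, had a log2 fold change of 0.18 (SE 0.09, edgeR adjusted p = 0.163), and APH1B, a homolog of APH1A, one of 0.09 (edgeR adjusted p = 0.473). PSENEN had few reads, at 3.39 to 4.77 CPM with si-CNN3#1 and 2.97 to 4.19 CPM with si-NC, and its interval of 88.4% to 135% of the control leaves changes of about that size undetectable at this depth. Of the 5 subunit genes examined 0 were called by edgeR, beside 13.3% of all tested genes. Among the 5, 1 (PSEN2) had an unadjusted p under 0.05, beside 3978 of the 15860 tested genes. By DESeq2, which called 1232 genes in all, and by limma on FPKM 0 of the 5 were called.

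Over the 8 genes other than APP, 1 was called lower (ADAM17) and 0 higher, against 7.14% and 6.17% of all tested genes. At an unadjusted p under 0.05, 2 of the 8 were lower (ADAM17 and BACE2) and 0 higher, beside 3978 of the 15860 tested genes in either direction. DESeq2 and limma on FPKM called 0 of the 8. In all they called 1232 genes (DESeq2), 1363 (limma on log2(FPKM + 1)) and 745 (limma on log2(FPKM + 0.1)). The log2 fold changes were below 0 in 7 of the 8, beside 7818 of the 15860 tested genes. Of these 7, APLP1 was within its SE of 0 (-0.01, SE 0.06) and turned sign in 5 of 16 alternatives. The median of the 8 was -0.05, beside 0.0023 for all tested genes. The CPM of the groups did not overlap in 5 of the 8, lower in APLP2, BACE2, ADAM17 and APH1A and higher in ADAM10. In all tested genes the groups did not overlap in 28.2%, lower with si-CNN3#1 in 14.3% and higher in 13.9%.

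The order of the levels per length was read from the FPKM of the control samples. APP was highest at 1299 ± 19.8 FPKM, followed by APLP2 at 790 ± 3.79, ADAM10 at 180 ± 0.82, NCSTN at 99.7 ± 3.77 and APH1A at 81.3 ± 1.06 FPKM. APP and APLP2 thus stood well above every protease gene. ADAM9 followed at 51.3 ± 0.75 FPKM, and no neighbours in the order down to PSENEN had overlapping ranges. APLP1 was at 23.4 FPKM, BACE2 at 18.3, APH1B at 16.03, BACE1 at 15.3, ADAM17 at 12.4, PSEN2 at 7.91 and PSENEN at 4.34 FPKM. The alpha-secretase ADAM10 thus exceeded both BACE1 and BACE2 by a wide margin on this scale.

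The deposited FPKM divide by a single length per gene, which was 1916 bases for APP and 1199 for ADAM10, whereas the transcript with the longest coding sequence has 3467 bases for APP and 11431 for ADAM10. With those transcript lengths the order of APP and APLP2 at the top was the same (718 and 281 length-scaled CPM), but ADAM10 moved from place 3 to place 6 (18.8), behind APH1A (51.0), NCSTN (42.8) and ADAM9 (31.8). The level of ADAM10 relative to the other proteases therefore depends on the length used, while its comparison between the groups does not.

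**Figure D2:**
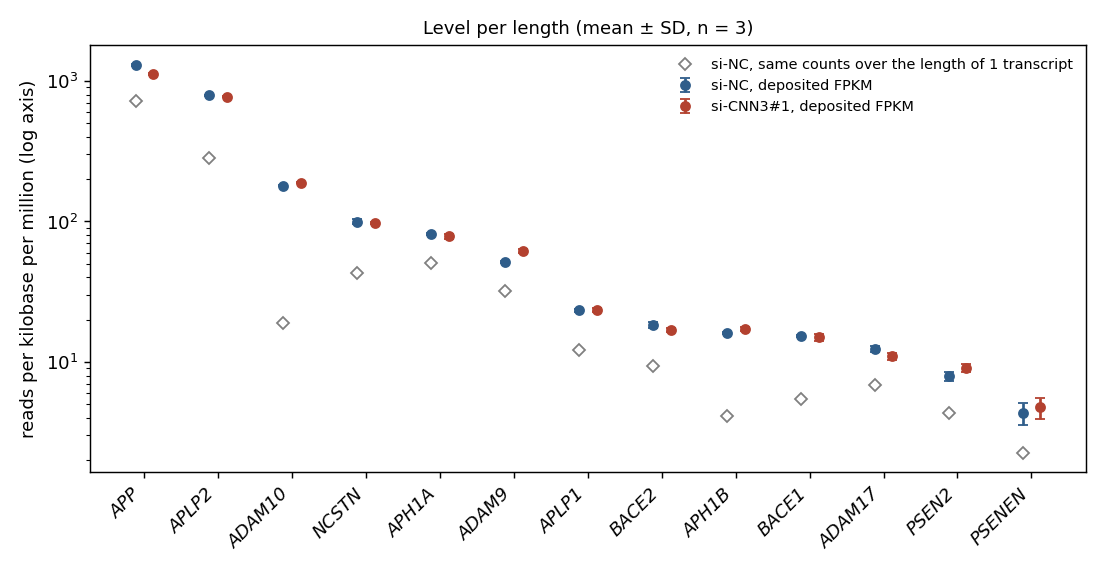
Level per length of the 9 genes, ADAM9, PSEN2, APH1B and PSENEN (log axis, length-scaled CPM, that is reads per kilobase and 1000000 reads); filled points are the deposited FPKM (blue si-NC, red si-CNN3#1, mean ± SD over 3 samples), and open diamonds are the si-NC counts over the length of 1 annotated transcript. APP (1299 FPKM) and APLP2 (790 FPKM) lead on both scales, and ADAM10 falls from 180 to 18.8 when its annotated transcript length is used.

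**Figure D3:**
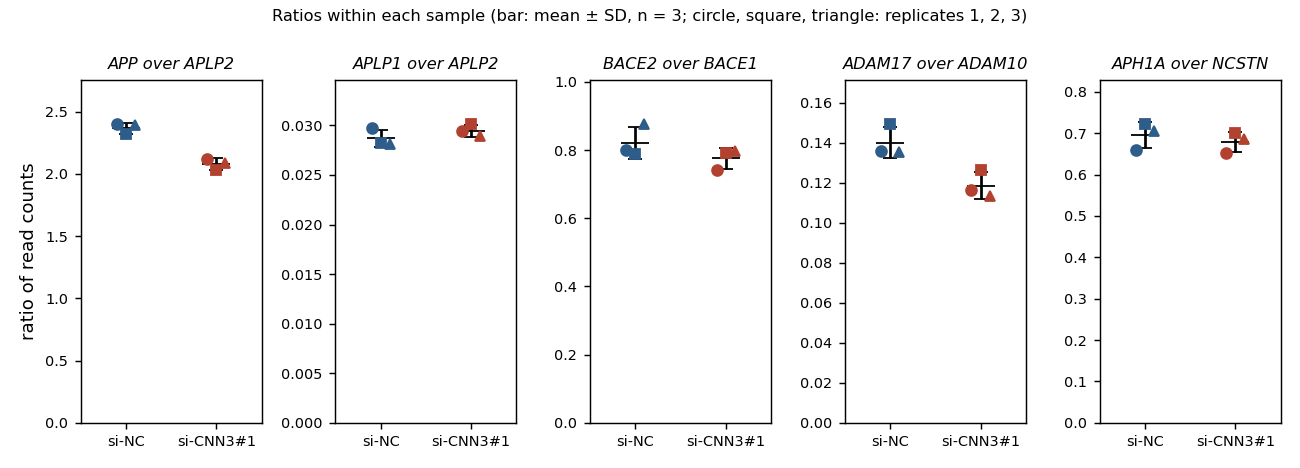
Ratios of read counts within each sample for 5 pairs of genes (linear axes from 0; blue si-NC, red si-CNN3#1; circle, square and triangle are replicates 1, 2 and 3; bars are mean ± SD). The groups are apart for APP over APLP2 (2.08 ± 0.047 against 2.37 ± 0.044) and for ADAM17 over ADAM10 (0.119 ± 0.0068 against 0.140 ± 0.0079), and overlap for the other 3 pairs. The ratio with APP reuses the counts by which APP was chosen and was not tested.

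Lists of genes around APP processing were then read, 121 genes in all, of which 104 were tested. Of these, 6 were called higher and 22 lower, with a median log2 fold change of -0.01, beside 6.17% and 7.14% of all tested genes. The lists were drawn up with earlier results of these data known. The number of lower calls is therefore a description and no independent support for a change around APP. By the lists' own counts, the calls lay in adaptors, sorting, shedding control, the ITM2 family, peptide degradation, substrates and transcription factors. None of the 5 tested further proteases that cut APP was called by edgeR, DESeq2 or limma. Of these 5, 1 (LGMN) had an unadjusted p under 0.05, beside 3978 of the 15860 tested genes.

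Of 12 tested adaptors that bind the cytoplasmic tail of APP, 3 were called lower and 0 higher by edgeR, beside 7.14% and 6.17% of all tested genes. At an unadjusted p under 0.05, 4 were lower and 1 higher, and by DESeq2 2 were lower and 0 higher. Of the 15860 tested genes, 3978 and 1232 passed these cut-offs in either direction. MAPK8IP2, a scaffold of the JNK kinases, fell from 40.6 ± 0.75 to 31.6 ± 1.59 CPM (log2 fold change -0.36, SE 0.05, adjusted p = 3.67e-07 by edgeR). The median log2 fold change of the 12 was -0.04. SHC1, an adaptor of receptor tyrosine kinases, fell by 0.13 on the log2 scale. APBA3, of the X11 family of APP binders, was called lower (-0.19, edgeR adjusted p = 0.0473), but 11 of the 16 alternatives lost that call, and leaving out any sample other than si-CNN3#1 replicate 3 raised its adjusted p to between 0.0709 and 0.239.

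Among 25 tested genes that sort APP and BACE1 between membranes, 5 were called lower and 2 higher, beside 7.14% and 6.17% of all tested genes. The list's median was 0.0002 on the log2 scale. SORT1 and SORCS2, receptors of the VPS10 family, fell by 0.26 and 0.31 on the log2 scale (34.5 ± 0.82 to 28.8 ± 1.34 CPM and 15.97 ± 0.98 to 12.9 ± 0.38 CPM; edgeR adjusted p = 0.000346 and 0.00272). SORCS2 lost its call with limma on log2(FPKM + 1) and log2(FPKM + 0.1) (adjusted p = 0.0547 and 0.114), and LRP1 with the latter (0.088). LRP1, the large endocytic receptor that binds APP, was called lower at 277 ± 11.3 against 307 ± 6.88 CPM. RANBP9, a scaffold that binds LRP1 and APP, was called higher (log2 fold change 0.18, edgeR adjusted p = 0.00581), a call that was lost without si-CNN3#1 replicate 2 (adjusted p = 0.0626).

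Of 18 genes that mature or inhibit ADAM10 and ADAM17, 3 were called lower and 1 higher, beside 7.14% and 6.17% of all tested genes. The median log2 fold change of the 18 was -0.04. SFRP1, a secreted Wnt antagonist that also inhibits ADAM10, showed the greatest change of the called genes in these lists, from 18.7, 18.4 and 16.3 CPM with si-NC to 11.9, 11.1 and 10.4 CPM with si-CNN3#1 (log2 fold change -0.67, SE 0.08, edgeR adjusted p = 2.35e-09). FRMD8, which binds the iRhoms and keeps ADAM17 stable at the cell surface, fell from 43.3 ± 2.004 to 36.8 ± 1.37 CPM (log2 fold change -0.24, edgeR adjusted p = 0.000511), in the same direction as ADAM17. TIMP2, a metalloprotease inhibitor, was called lower (-0.14). PCSK5, a proprotein convertase, was called higher (0.21, edgeR adjusted p = 0.0288), but that call was lost in 10 of 16 alternatives, and without any sample other than si-CNN3#1 replicate 3 its adjusted p lay between 0.0525 and 0.193.

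Of 13 tested genes that degrade or bind amyloid-beta, 3 were called lower and 0 higher by edgeR, beside 7.14% and 6.17% of all tested genes. At an unadjusted p under 0.05, 4 were lower and 3 higher, and by DESeq2 2 were lower and 0 higher. These cut-offs were passed by 3978 and 1232 of the 15860 tested genes in either direction. The median log2 fold change of the 13 was 0.02. CTSB, the lysosomal protease cathepsin B, went from 179, 174 and 171 CPM with si-NC to 130, 127 and 128 CPM with si-CNN3#1 (log2 fold change -0.44, SE 0.03, edgeR adjusted p = 4.3e-17). CTSD, cathepsin D, fell from 74.0 ± 0.86 to 63.5 ± 1.26 CPM (-0.22, edgeR adjusted p = 2.93e-05). Both cathepsins held their calls in all 16 alternatives. CST3, the cathepsin inhibitor cystatin C, had an edgeR adjusted p of 0.0450 (log2 fold change -0.10) that was lost in 11 of the 16, and leaving out any sample other than si-CNN3#1 replicate 1 raised it to between 0.0840 and 0.196. ITM2C, of the BRI family that binds APP, was called lower (-0.20, edgeR adjusted p = 2.46e-06). It was the only call among the 2 tested genes of that family, beside 7.14% lower and 6.17% higher of all tested genes.

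Other substrates that these secretases share with APP went both ways, with 3 of 22 called higher and 5 lower, beside 6.17% and 7.14% of all tested genes. The median log2 fold change of the 22 was 0.04. NOTCH1, the receptor cut by ADAM10 and then by gamma-secretase, fell from 142 ± 0.82 to 117 ± 4.78 CPM (log2 fold change -0.27, SE 0.03, edgeR adjusted p = 4.14e-09). SDC3 and SDC1, heparan sulfate proteoglycans of the same family, differed in direction, with SDC3 lower (-0.23) and SDC1 higher (0.28, 47.3 ± 0.90 to 57.6 ± 1.87 CPM). AXL, a receptor tyrosine kinase, had a log2 fold change of 0.51 at low levels (4.88 ± 0.30 to 6.97 ± 0.37 CPM, edgeR adjusted p = 0.00124). Of 7 transcription factors known to act on the APP promoter, SP1 and CTCF were called lower, each by 0.12 on the log2 scale (-0.12), and 0 were called higher. The shares of all tested genes were 7.14% and 6.17%. The same genes were lower, and 0 higher, at an unadjusted p under 0.05 and by DESeq2, beside 3978 and 1232 of the 15860 tested genes in either direction. The call of CTCF was lost without si-NC replicate 1 (edgeR adjusted p = 0.0679) and with limma on log2(FPKM + 1) and log2(FPKM + 0.1) (adjusted p = 0.0925 and 0.188), and that of SP1 with the latter (0.0564).

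**Figure D4:**
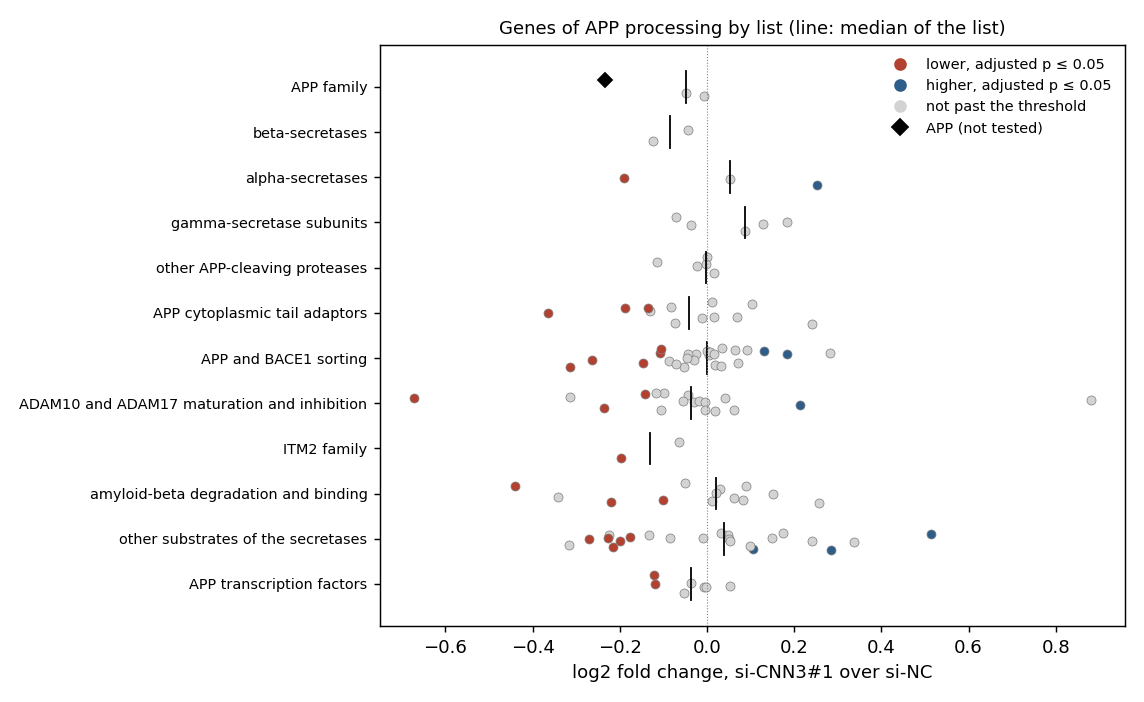
Log2 fold change (si-CNN3#1 over si-NC) of each tested gene in the lists of APP processing, 1 row per list; red points were called lower, blue points called higher, grey points were not past the threshold, the black diamond is APP, which was not tested, and short lines are list medians. Called genes lay on both sides of 0, with SFRP1 (-0.67) and CTSB (-0.44) the lowest of those called and AXL (0.51) the highest.

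Within 1000000 bases on either side of APP on chromosome 21, 5 protein-coding genes passed the filter, of which 1 was called higher and 1 lower, beside 6.17% and 7.14% of all tested genes. ATP5PF, a subunit of ATP synthase, was called higher (91.8 ± 4.36 to 101 ± 2.99 CPM, log2 fold change 0.13, edgeR adjusted p = 0.00723), a call that was lost without si-NC replicate 2 (0.0625) or replicate 3 (0.0744). ADAMTS1, a secreted metalloprotease, was called lower (172 ± 10.6 to 157 ± 7.51 CPM, log2 fold change -0.14, edgeR adjusted p = 0.00379) although its groups overlapped, and the call was lost without si-CNN3#1 replicate 2 (0.0799) or si-NC replicate 3 (0.0967). MRPL39 (log2 fold change 0.14, adjusted p = 0.0768 by edgeR), JAM2 (0.14, 0.744) and GABPA (0.05, 0.364) did not pass the test. MRPL39 passed it in 3 of the 16 alternatives, with the lowest adjusted p without si-CNN3#1 replicate 2 (0.0389 by edgeR).

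The genes with the profile nearest to that of APP were sought among 9794 genes with at least 10 CPM, by Euclidean distance of the centred log2 CPM over the 6 samples. They were MARCKSL1 (distance 0.0279), a substrate of protein kinase C, IFITM2 (0.0371), an interferon-induced membrane protein, PNPLA6 (0.0404), a phospholipase, CLNS1A (0.0430), a subunit of the methylosome, and FXYD5 (0.0445), a regulator of the sodium pump. Their log2 fold changes ran from -0.25 to -0.21, which follows from the choice by likeness to APP. Like APP, each had its lowest control value in si-NC replicate 2. The 6 points of each profile share the groups and libraries, and the likeness is given as a description.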

How the data were processed

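SiHa RNA sequencing libraries (3 with si-CNN3#1, 3 with si-NC) were grouped by their labels. The authors deposited raw read counts per Ensembl gene and FPKM values computed from the same counts, each with 1 length per gene. The submitters' processing notes name TopHat2 2.0.9, Bowtie2 2.0.6, HTSeq and DESeq 1.10.1. The genome build, annotation, strand setting and treatment of reads with several matches are not given in the sources used here, so counts of genes with overlapping exons are uncertain. Names and positions came from GENCODE release 29 (GRCh38), which names 45342 of 48162 identifiers.

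Counts were tested with edgeR 4.0.16 in R 4.3.3 (TMM, filterByExpr, glmQLFit and glmQLFTest, group as the only term, Benjamini-Hochberg adjustment over 15860 genes). Intervals are 95% intervals of the fitted fold change. The DESeq program that the study used was not rerun. Alternatives were other normalizations and filters, DESeq2 1.42.0, thinning to the smallest total, a replicate block, each sample left out, and limma 3.58.1 on log2(FPKM + 1), for genes averaging 1 FPKM or more, or on log2(FPKM + 0.1), unfiltered. Fold changes on those scales understate changes of low genes.

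Named genes are CNN3, the 9 genes, ADAM9, PSEN2, APH1B, PSENEN, up to 4 called genes of greatest absolute fold change from each list, the 5 profiles nearest to APP, the tested protein-coding genes within 1000000 bases of APP, and genes overlapping the 9 on the other strand. RPLP1, LGMN, KRT7, KRT8, KRT18, KRT19, EPCAM, CD14, COL1A1, DCN, COL3A1, STMN2 and the other neuronal markers were named after their values were seen. The members and lists were chosen with earlier results of these data known, and 155 of 156 list genes matched. 1 gene of the gamma-secretase list is not reported here. The fits were tested on simulated data.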

Additional observations from a re-analysis of the deposited data

How the results depend on the processing

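The count of called genes was 2111, and it was 1232 with DESeq2 (which left 4613 adjusted p as NA), 1363 with limma on log2(FPKM + 1), 745 with limma on log2(FPKM + 0.1) and from 1551 to 1747 with 1 sample left out. Of the 8 genes other than APP, 1 was called, and 0 were called with DESeq2 and with both limma fits, and from 0 to 1 with 1 sample left out. The cause of these differences was not tested.

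The replicate numbers were not shown to pair the samples, since same-numbered samples had correlations of their deviations of 0.077, 0.129 and 0.102, although each sample correlated best with its own number. With the replicate block 2727 genes and 2 of the 8 were called, APLP2 being added (edgeR adjusted p = 0.0362).

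The log2 fold change of APLP1 (-0.01) was above 0 with total counts only (0.011), in the limma fits (0.0085 and 0.0088) and without some samples (-0.026 to 0.017 with 1 left out). With 1 sample left out the sign also turned for BACE1 (-0.084 to 0.0016), PSENEN (-0.033 to 0.25), JAM2 (-0.16 to 0.36) and the antisense or overlapping genes AP001442.1 (-0.74 to 0.039), AC080162.1 (-0.0050 to 0.47) and C1orf54 (-0.20 to 0.85; -0.18 without si-CNN3#1 replicate 1), none of which was called. Over all named genes and alternatives, 768 values kept direction and side of the threshold, 57 lost a call, 5 gained one and 12 turned. The 768 include the 16 values of APP, which were judged by direction and size of the fold change alone, without a threshold. TIMP2 lost its call in both limma fits (adjusted p = 0.0524 and 0.145), as did ADAMTS1 (0.128 and 0.311), and SHC1 (0.0587), AXL (0.0879) and ATP5PF (0.0789) lost theirs with limma on log2(FPKM + 0.1). No other normalization of the counts ended the call of ADAM17. With 3 samples a group, values of single genes were not screened for outlying samples.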
